A study of Mus musculus with 6 samples.

Results

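The Wnt genes described here were the 51 rows of the gene table whose symbol is a Wnt ligand, a Frizzled receptor, an Sfrp or Dkk antagonist, an R-spondin or an Lgr receptor, or 1 of 13 named genes of the pathway (Lrp5, Lrp6, Ror1, Ror2, Ryk, Wif1, Ctnnb1, Lef1, Tcf7, Tcf7l1, Tcf7l2, Axin2 and Nkd1), out of 21286 genes in all. RNA had been sequenced from the lateral ganglionic eminence (LGE), the embryonic forebrain region whose progenitors make striatal neurons and olfactory bulb interneurons. The 3 mutant libraries came from mouse embryos at embryonic day 16.5 with the genotype Dlx1/2 -/-, lacking the homeobox transcription factors Dlx1 and Dlx2. The 3 wild type libraries came from littermates of the same age, and both groups were on a mixed background of C57BL/6J, 129S6 and CD1. Whether libraries stem from different embryos is not in the labels, so a p-value here reflects only the spread among the 3 libraries of a group, which may be technical.

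Wnt proteins are secreted, lipid-modified signals. In the canonical branch a Wnt binds a Frizzled receptor together with Lrp5 or Lrp6, which stops the degradation of beta-catenin (Ctnnb1) and lets it act with the DNA-binding factors Lef1 and Tcf7, Tcf7l1 and Tcf7l2, while in noncanonical branches Wnts such as Wnt5a act through Ror2, Ryk or the planar cell polarity proteins. In the developing forebrain Wnt signals are known for their part in dorsal patterning, in the balance of progenitor division and differentiation, and, through Wnt7a and Wnt7b, in the growth of brain blood vessels.

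Total counts per library ran from 10711630 to 16588359. The targeted genes were low in every mutant library: Dlx2 averaged 16.8 ± 1.68 CPM (counts scaled to library size) in mutants and 436.3 ± 29.8 CPM in wild type, and Dlx1 averaged 122.1 ± 14.4 CPM in mutants and 857.9 ± 35.7 CPM in wild type (SD, n = 3 each). Of 13 LGE markers, all of them tested, 9 were lower and 2 higher, and their summed level was 1929 to 2206 CPM in mutants and 3843 to 4124 CPM in wild type; the member with the highest level, Bcl11b, averaged 573 CPM in mutants and 1183 CPM in wild type. Markers of other cells moved as well. The 7 diencephalic and hypothalamic markers summed to 489 to 576 CPM in mutants and 39.7 to 116.8 CPM in wild type, of which Otp alone averaged 446 CPM in mutants and 0.558 CPM in wild type. The 9 radial glia markers summed to 2251 to 2334 CPM in mutants and 1706 to 1924 CPM in wild type, with 4 called higher. The 8 pallial markers summed to 127 to 179 CPM in mutants and 49.9 to 93.4 CPM in wild type, with 3 of 6 tested called higher. Most of the mutant sum was Neurod2 (58.6 CPM in mutants, 11.1 CPM in wild type) and Neurod6 (44.6 CPM in mutants, 8.05 CPM in wild type). Not called were Emx2 (24.9 CPM in mutants, 22.2 CPM in wild type) and, lower on average in mutants, Tbr1 (6.91 CPM in mutants, 12.6 CPM in wild type) and Eomes (4.34 CPM in mutants, 8.62 CPM in wild type). Emx1 (0.248 CPM in mutants, 0.553 CPM in wild type) and Slc17a7 (0.209 CPM in mutants, 0.234 CPM in wild type) were near 0. The part of these cell types in the Wnt results was not tested. In bulk tissue, fewer cells of a type and less RNA per cell cannot be told apart.

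A gene was called when its adjusted p from edgeR's quasi-likelihood test was below 0.05, and 15326 genes had enough reads to be tested. Among the Wnt genes 37 were tested, of which 14 rose and 6 fell in mutants, so 20 of 37 (54.1%) were called, against 24.0% of all tested genes. Mutant and wild type values did not overlap in 24 of the 37, with 17 higher and 7 lower in mutants, against 41.9% of all tested genes. Of the 37, 11 were called with a change of at least 2-fold, against 6.88% of all tested genes, and 7 of these were among the genes with enough reads in every library. The median log2 fold change was 0.15 over the tested Wnt genes and 0.0028 over all tested genes. Of the 20, 4 had enough reads only in the group where they were high (Fzd10 and Dkk1 in mutants, Wnt11 and Dkk2 in wild type), so passing the filter already required a difference. Of the 33 genes with enough reads in every library, 12 rose and 4 fell. Levels below are given as FPKM, the counts scaled to library size and gene length that the authors deposited, where genes are set side by side.

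**Figure D1:**
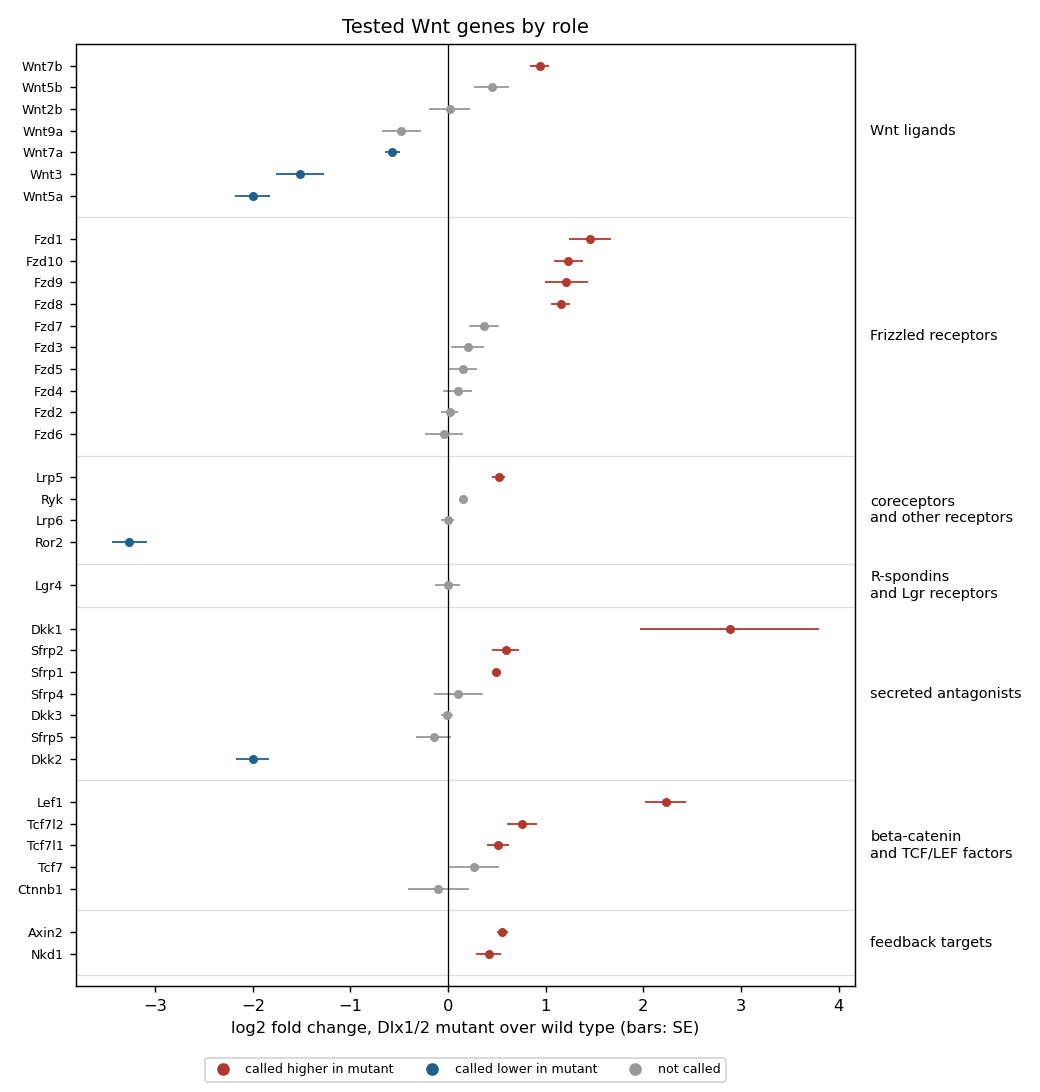
Log2 fold change (mutant over wild type) on the horizontal axis for tested Wnt genes, grouped by role, with bars for the SE (n = 3 each); red points were called higher in mutants, blue points called lower and grey points not called. Wnt11, with no reads in mutants, is left out. Blue points lie mostly among the ligands, whereas all 4 called Frizzled receptors and all 3 called TCF/LEF factors are red. Fzd10, Dkk1 and Dkk2 had enough reads only in the group where they were high.

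Of the 15 ligands in the table, 8 were tested, and 1 rose (Wnt7b) and 4 fell (Wnt7a, Wnt3, Wnt5a and Wnt11). For comparison, 11.2% of all tested genes were called higher and 12.8% lower. Wnt11 had enough reads only in wild type, so passing the filter already required a difference. The median log2 fold change of the ligands was -0.53 and is the same with Wnt11 at the bound given below. Wnt7a (ENSMUSG00000030093, chr6:91363981-91411363, minus strand, GRCm38), the ligand with the highest level in both groups, was at 14.6, 14.5 and 14.6 FPKM in mutant libraries, against 23.2, 21.0 and 19.7 FPKM in wild type libraries. The mutant values were almost equal to each other and all lay below the wild type values. The change was -0.57 ± 0.080 on the log2 scale (SE, adjusted p = 0.00133), or 1.48-fold lower. Wnt7b (ENSMUSG00000022382, chr15:85535437-85582473, minus strand), its close relative, moved the other way, with 9.85, 8.92 and 8.24 FPKM in mutant libraries, against 4.42, 5.08 and 4.33 FPKM in wild type libraries. All mutant values lay above all wild type values, and the change was 0.94 ± 0.098 (SE, adjusted p = 2.94e-04), or 1.92-fold higher. AU022754, a gene on the opposite strand that overlaps Wnt7b, averaged 2.59 CPM in mutants and 1.09 CPM in wild type, and since no source used here gives the strand setting of the counts, reads of the pair may be shared.

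The ratio and the sum of both ligands were also taken per library. Wnt7a over Wnt7b, as a ratio of FPKM, was 1.48, 1.62 and 1.78 in mutant libraries, against 5.25, 4.13 and 4.55 in wild type libraries. The ratio is a description only, since Wnt7a was lower and Wnt7b higher in every mutant library. Its exact two-sided permutation p was 0.1, the smallest value that 3 libraries in each group allow. Wnt7a and Wnt7b together came to 24.4, 23.4 and 22.9 FPKM in mutant libraries, against 27.6, 26.1 and 24.0 FPKM in wild type libraries, so the ranges of the sum overlapped. As a share of the summed FPKM of all 15 ligands, Wnt7a made up 55.6 ± 2.18% in mutants and 70.1 ± 3.17% in wild type, and Wnt7b 34.3 ± 1.81% in mutants and 15.2 ± 1.2% in wild type (SD, n = 3 each).

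**Figure D2:**
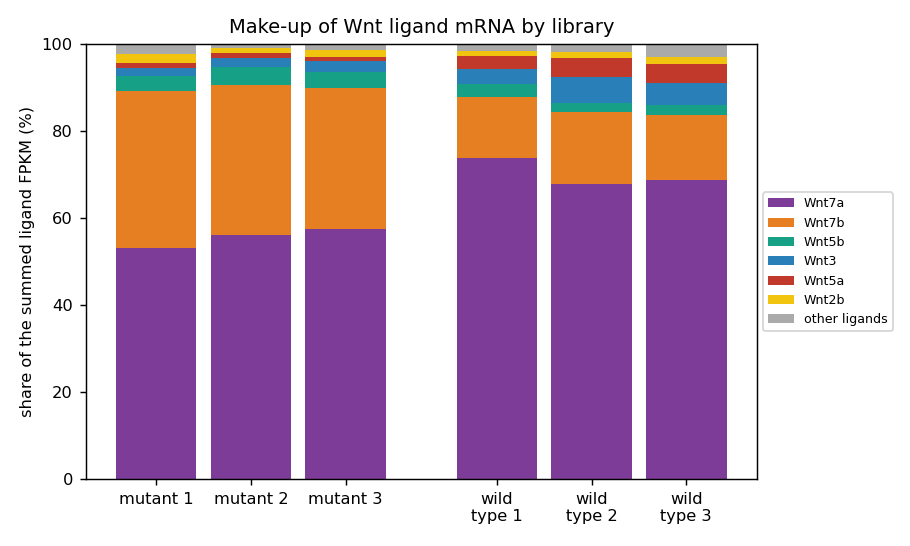
Share of each ligand in the summed ligand FPKM (vertical axis, percent) in each library, with the 3 mutant libraries on the left and the 3 wild type libraries on the right. The orange Wnt7b share is 32.3 to 35.9% in mutant libraries and 14.1 to 16.4% in wild type libraries, and the Wnt7a share is below 60% in each mutant library.

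Of the ligands at lower levels, Wnt5a, Wnt11 and Wnt3 fell. Wnt5a, known mainly for noncanonical signalling (chr14:28504750-28527448, plus strand) was at 0.320, 0.305 and 0.261 FPKM in mutant libraries, against 0.901, 1.32 and 1.26 FPKM in wild type libraries. The groups were far apart, and Wnt5a fell by 2.001 ± 0.18 on the log2 scale (SE, adjusted p = 1.003e-04), a 4.003-fold difference. Gm2670, which overlaps it on the opposite strand, had 50 counts over all libraries against 815 for Wnt5a. Wnt11 had no read in any mutant library, against 11, 17 and 13 reads in wild type libraries, and was at least 5.09-fold lower when a floor of 3 counts was set in each mutant library (adjusted p = 0.00154). Wnt3, a ligand of the canonical branch, was at 0.462, 0.477 and 0.634 FPKM in mutant libraries, against 1.123, 1.83 and 1.45 FPKM in wild type libraries, with no overlap between groups. Its change was -1.52 ± 0.24 (SE, adjusted p = 0.00309). Wnt5b, the paralogue of Wnt5a, averaged 1.01 ± 0.064 FPKM in mutants and 0.736 ± 0.152 FPKM in wild type, and its log2 difference of 0.44 ± 0.18 was not called (adjusted p = 0.118) although the groups did not overlap. It was called without wild type library 1 (adjusted p = 0.0325), and Fbxl14, which overlaps it on the opposite strand, had 6965 counts over all libraries against 443 for Wnt5b. Wnt2b (0.438 FPKM in mutants, 0.423 FPKM in wild type, adjusted p = 0.969) and Wnt9a (0.147 FPKM in mutants, 0.205 FPKM in wild type, adjusted p = 0.237) were not called.

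The other 7 ligands (Wnt1, Wnt2, Wnt4, Wnt6, Wnt8a, Wnt10a and Wnt16) had too few reads to test. Wnt4 had the most, with 16 counts over the mutant libraries and 15 over the wild type libraries, and Wnt1 had 6 counts in mutants and 14 in wild type. A difference in these ligands was not detectable at this depth, where 3 counts correspond to 0.181 to 0.280 CPM.

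Among the receptors, all 10 Frizzleds were tested, and 4 rose and none fell, with a median log2 fold change of 0.28. Over all tested genes, 11.2% were called higher and 12.8% lower. Fzd10, 1 of the 4, had enough reads only in mutants, so passing the filter already required a difference. Fzd8 was at 20.5, 20.3 and 22.7 FPKM in mutant libraries, against 10.2, 8.85 and 8.99 FPKM in wild type libraries. It rose 2.23-fold (log2 1.15 ± 0.096 SE, adjusted p = 5.73e-05), with tight and separate groups. Fzd1 (ENSMUSG00000044674, chr5:4753839-4758035, minus strand) was at 18.5, 13.3 and 19.8 FPKM in mutant libraries, against 5.23, 6.16 and 7.11 FPKM in wild type libraries. Mutant library 2 was the lowest of its group and still above every wild type library, and the rise was 2.74-fold (log2 1.45 ± 0.22 SE, adjusted p = 5.17e-04). Fzd9 was at 2.07, 1.92 and 1.62 FPKM in mutant libraries, against 0.570, 0.820 and 0.946 FPKM in wild type libraries, a 2.32-fold rise (adjusted p = 0.00568). Fzd10, near the detection limit at 0.277 FPKM in mutants and 0.112 FPKM in wild type, was also called (log2 1.23 ± 0.15 SE, adjusted p = 0.0213), but lost the call in 7 of 10 alternative settings, among them leaving out any mutant library, wild type library 1 or wild type library 2 (adjusted p 0.0215 to 0.187 over the 10).

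Fzd2 and Fzd3, the Frizzleds with the highest deposited FPKM in both groups, did not pass the test. Fzd2 was at 29.3 ± 1.53 FPKM in mutants and 28.5 ± 2.08 FPKM in wild type (adjusted p = 0.905), and Fzd3 at 23.8 ± 0.815 FPKM in mutants and 20.4 ± 3.69 FPKM in wild type (adjusted p = 0.297). The gene length implied by the FPKM was 0.346 of the annotated exon length for Fzd3 and 0.560 for Fzd8, so the order of Fzd3, Fzd8 and Fzd1 by level is uncertain. Per library, Fzd1 over Fzd2 was 0.663, 0.458 and 0.641 in mutants, against 0.170, 0.222 and 0.265 in wild type. This is a description only, as its exact two-sided permutation p of 0.1 is the smallest that 3 libraries in each group allow. The summed deposited FPKM of all Frizzleds was 98.6 to 107.0 in mutant libraries and 67.5 to 79.3 in wild type libraries. Fzd7 (4.13 FPKM in mutants, 3.18 FPKM in wild type, adjusted p = 0.0858) was called without wild type library 1 (adjusted p = 0.015), and Fzd4, Fzd5 and Fzd6 had adjusted p of 0.729, 0.439 and 0.885. The radial glia markers were 1.26-fold higher in sum in mutants. Single markers ran from 0.876-fold (Slc1a3) to 3.52-fold (Hes5), mutant over wild type. The part of radial glia in the Frizzled values was not tested.

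The 250 bases upstream of the RefSeq start were searched in members with a promoter in the RefSeq table (35 of 51, GRCm38.p6, 1 promoter per gene) for CTTTGA, the core of a TCF/LEF site, and for TAATTA, a homeodomain core, on both strands. CTTTGA occurred in 4 of 35 (11.4%: Dkk1, Fzd1, Ror1 and Wnt11), against 14.1% of 27025 promoters, and TAATTA in 0 of 35, against 4.91%. A match is a description of the letters and not a site. The windows of Fzd1 (chr5:4758217-4758466, minus strand), Ror2 (chr13:53286125-53286374, minus strand) and Lef1 (chr3:131110047-131110296, plus strand) are shown as those of the receptors and the nuclear factor with large changes in level. Capitals mark the single match, TCAAAG, which is CTTTGA on the opposite strand and begins 242 bases before the Fzd1 start.
Fzd1: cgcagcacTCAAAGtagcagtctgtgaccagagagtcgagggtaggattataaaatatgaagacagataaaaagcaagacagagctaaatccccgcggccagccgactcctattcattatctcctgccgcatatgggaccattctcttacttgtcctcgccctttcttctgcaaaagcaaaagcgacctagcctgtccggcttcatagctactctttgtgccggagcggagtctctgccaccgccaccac
Ror2: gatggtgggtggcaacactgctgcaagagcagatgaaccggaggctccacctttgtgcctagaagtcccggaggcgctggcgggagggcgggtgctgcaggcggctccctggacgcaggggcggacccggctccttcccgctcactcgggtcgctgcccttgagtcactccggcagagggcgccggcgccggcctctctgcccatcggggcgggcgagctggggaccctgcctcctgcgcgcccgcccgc
Lef1: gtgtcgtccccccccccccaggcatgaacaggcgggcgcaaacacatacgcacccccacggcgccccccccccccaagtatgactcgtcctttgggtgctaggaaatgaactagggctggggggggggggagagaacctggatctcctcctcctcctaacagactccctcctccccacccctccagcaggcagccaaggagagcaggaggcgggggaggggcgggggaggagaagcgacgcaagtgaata
The GC content was 51.2% in the Fzd1 window, 73.2% in that of Ror2 and 66.4% in that of Lef1.

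Ror2 (ENSMUSG00000021464, chr13:53109312-53286124, minus strand), a receptor tyrosine kinase for Wnt5a, had the largest fall among the Wnt genes with reads in both groups. It was at 0.130, 0.172 and 0.151 FPKM in mutant libraries, against 1.71, 1.31 and 1.31 FPKM in wild type libraries. Every wild type value was several times any mutant value, and Ror2 fell by 3.27 ± 0.18 on the log2 scale (SE, adjusted p = 2.08e-05), a 9.61-fold difference. Wnt5a and its receptor Ror2 were thus both lower in mutants. Ror1, its paralogue, had 18 counts in mutants and 22 in wild type and was not tested, and Ryk, another Wnt receptor, was at 11.3 ± 0.358 FPKM in mutants and 9.97 ± 0.283 FPKM in wild type (log2 0.15 ± 0.032 SE, adjusted p = 0.0843), not called.

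Of the coreceptors, Lrp5 was called and Lrp6 was not. Lrp5 was at 5.12, 5.34 and 5.68 FPKM in mutant libraries, against 3.80, 3.80 and 3.51 FPKM in wild type libraries, and rose 1.43-fold (log2 0.52 ± 0.066 SE, adjusted p = 0.00151). Lrp6, the more abundant of the pair, was at 10.8 ± 0.555 FPKM in mutants and 10.6 ± 0.612 FPKM in wild type (adjusted p = 0.972), with overlapping groups. The ratio of Lrp5 to Lrp6 was 0.501 ± 0.052 in mutants and 0.349 ± 0.029 in wild type (SD, n = 3 each). An exact two-sided permutation test of this ratio gave p = 0.1. With 3 libraries in each group it can give no smaller value, so it does not decide whether the 2 coreceptors differ.

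R-spondins, which strengthen Wnt signals by binding Lgr receptors, were barely detected. Lgr4 was the only 1 of the 6 R-spondin and Lgr genes tested, at 2.52 ± 0.284 FPKM in mutants and 2.48 ± 0.292 FPKM in wild type (adjusted p = 0.982). Lgr5 had 3 counts in mutants and 22 in wild type, a ratio of wild type to mutant of 8.20 with a 95% counting interval of 2.46 to 42.8, but 16 of the 22 came from wild type library 3. In a fit without a filter it was not called (adjusted p = 0.0878). Rspo1 had 7 counts in mutants and 2 in wild type, Rspo2 11 in mutants and 5 in wild type, Rspo3 7 in mutants and 16 in wild type, and Lgr6 4 in mutants and 11 in wild type.

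Of 7 tested antagonists, 3 rose (Sfrp1, Sfrp2 and Dkk1) and 1 fell (Dkk2), or 57.1% called, against 24.0% of all tested genes. Dkk1 and Dkk2 had enough reads only in the group where they were high, so passing the filter already required a difference. Sfrp1, a secreted decoy that binds Wnts, had by far the highest level of the antagonists, with 82.4, 80.6 and 83.8 FPKM in mutant libraries, against 60.0, 56.2 and 56.3 FPKM in wild type libraries. The groups were tight and apart, and the rise was 1.41-fold (log2 0.49 ± 0.046 SE, adjusted p = 2.55e-04). Sfrp2 was at 5.88, 6.31 and 7.42 FPKM in mutant libraries, against 3.70, 4.69 and 4.38 FPKM in wild type libraries (log2 0.59 ± 0.14 SE, adjusted p = 0.0119). Summed over the 8 antagonists, FPKM was 99.8 to 104.1 in mutant libraries and 74.1 to 75.6 in wild type libraries.

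Both called Dickkopf genes, whose proteins bind Lrp5 and Lrp6, were low. Dkk1, an inhibitor of the coreceptors, had 29, 27 and 21 counts in mutant libraries, against 0, 3 and 6 in wild type libraries (log2 2.88 ± 0.92 SE, adjusted p = 0.00490). With so few wild type reads the size was loose, and without wild type library 3 the log2 change was 3.70. Dkk2 was at 0.100, 0.103 and 0.102 FPKM in mutant libraries, against 0.454, 0.455 and 0.325 FPKM in wild type libraries (log2 -2.001 ± 0.17 SE, adjusted p = 0.00196). Dkk3 (6.32 FPKM in mutants, 6.27 FPKM in wild type, adjusted p = 0.952), Sfrp4 (2.29 FPKM in mutants, 2.07 FPKM in wild type, adjusted p = 0.785) and Sfrp5 (3.94 FPKM in mutants, 4.26 FPKM in wild type, adjusted p = 0.559) were not called, and Wif1 had 5 counts in mutants and 7 in wild type.

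**Figure D3:**
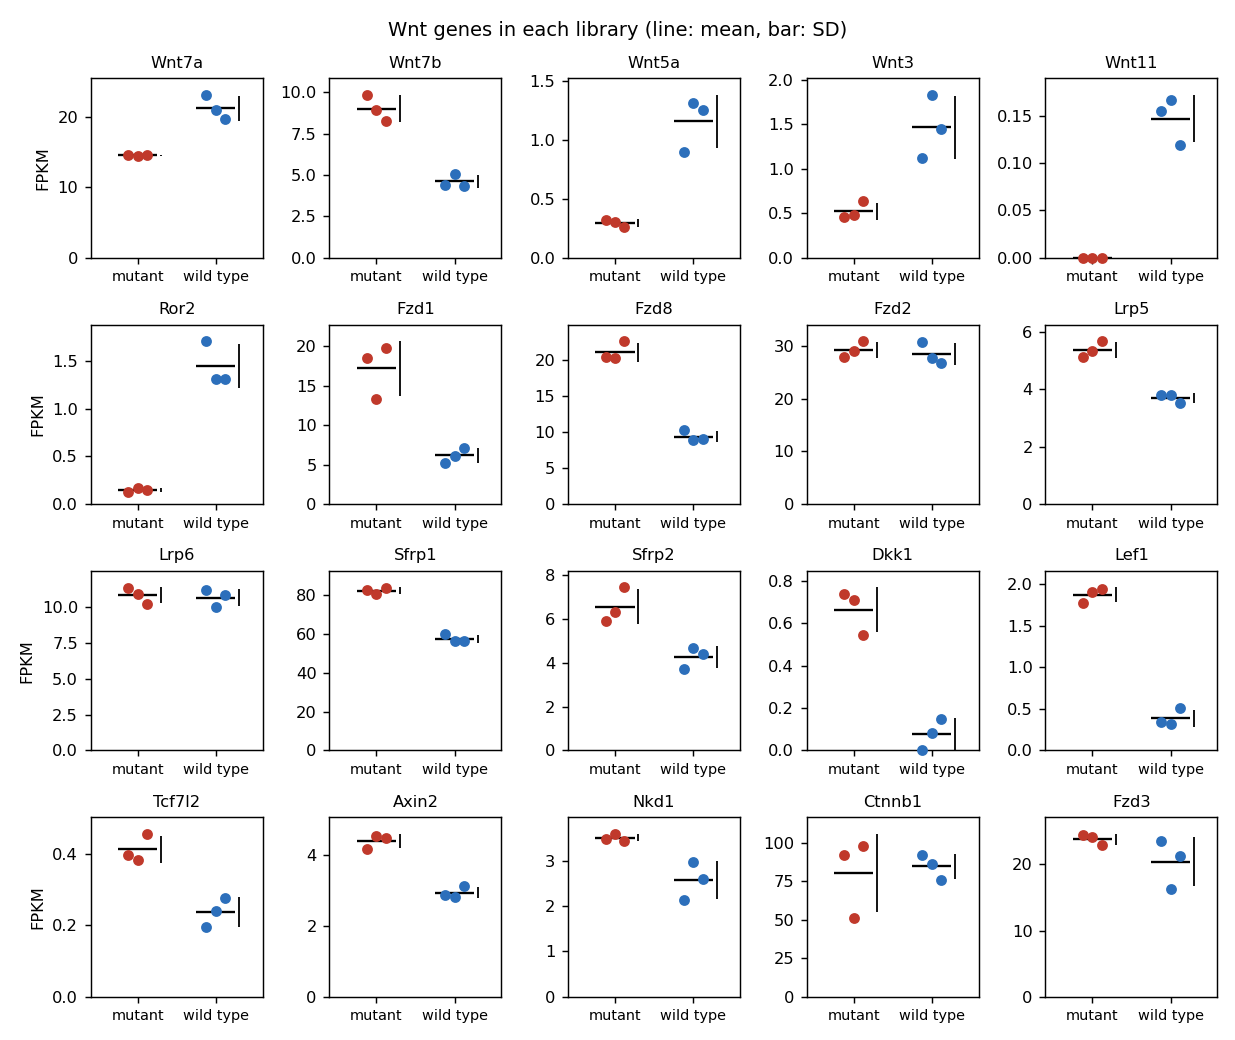
FPKM (vertical axis, linear, from 0) of 20 Wnt genes in each library, with mutant libraries in red on the left of each panel and wild type libraries in blue on the right; the horizontal line is the mean and the vertical bar the SD (n = 3 each). Lef1 lies at 1.78 to 1.95 FPKM in mutants and 0.316 to 0.509 FPKM in wild type, whereas Fzd2, Lrp6, Ctnnb1 and Fzd3 overlap between groups.

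On the nuclear side, 3 of 4 TCF/LEF factors rose, against 11.2% of all tested genes called higher, and beta-catenin was not called. Lef1 (ENSMUSG00000027985, chr3:131110471-131224356, plus strand), a DNA-binding partner of beta-catenin that is itself a target of Wnt signalling in many tissues, was at 1.78, 1.90 and 1.95 FPKM in mutant libraries, against 0.343, 0.316 and 0.509 FPKM in wild type libraries. The lowest mutant value was more than 3 times the highest wild type value, and the rise was 4.69-fold (log2 2.23 ± 0.21 SE, adjusted p = 5.89e-05). Gm43352, which overlaps Lef1 on the opposite strand and may share its reads, averaged 3.47 CPM in mutants and 0.482 CPM in wild type, with 186 counts in all against 985 for Lef1. Tcf7l2 was at 0.396, 0.384 and 0.455 FPKM in mutant libraries, against 0.196, 0.239 and 0.277 FPKM in wild type libraries (log2 0.76 ± 0.16 SE, adjusted p = 0.00948). Tcf7l1, often a repressor of Wnt targets, was at 2.40, 2.71 and 3.03 FPKM in mutant libraries, against 1.83, 1.76 and 2.02 FPKM in wild type libraries (log2 0.51 ± 0.12 SE, adjusted p = 0.0179). That call was lost without mutant library 2 (adjusted p = 0.0541), mutant library 3 (0.0617) or wild type library 2 (0.0695). Tcf7 (1.37 FPKM in mutants, 1.11 FPKM in wild type, adjusted p = 0.453) was not called.

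Ctnnb1 was at 92.2, 51.1 and 97.5 FPKM in mutant libraries, against 91.8, 86.2 and 75.6 FPKM in wild type libraries. Mutant library 2 stood below each of the other libraries. The log2 difference was -0.10 ± 0.31 (SE, adjusted p = 0.787), and 0.14 without mutant library 2 (adjusted p = 0.389).

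Both feedback targets in the set rose, against 11.2% of all tested genes called higher. Axin2, a scaffold of the complex that degrades beta-catenin and a widely used readout of canonical signalling (chr11:108920349-108950783, plus strand), was at 4.17, 4.54 and 4.48 FPKM in mutant libraries, against 2.88, 2.83 and 3.11 FPKM in wild type libraries. The groups were apart, with a 1.47-fold rise (log2 0.56 ± 0.058 SE, adjusted p = 0.00142). Nkd1, which binds Dishevelled, was at 3.48, 3.59 and 3.44 FPKM in mutant libraries, against 2.14, 2.98 and 2.60 FPKM in wild type libraries (log2 0.42 ± 0.13 SE, adjusted p = 0.0409). Its call was lost in 8 of 10 alternative settings, among them leaving out any mutant library, wild type library 1 or wild type library 3, with adjusted p of 0.0263 to 0.115 over the 10.

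Endothelial cells also use canonical Wnt signals, and the 7 endothelial markers summed to 195 to 202 CPM in mutants and 217 to 242 CPM in wild type, with 2 called lower (Slc2a1 and Flt1) and the other 5 not called. Their part in the Lef1 and Axin2 values was not tested. The 7 cortical hem and choroid plexus markers summed to 16.7 to 18.1 CPM in mutants and 12.1 to 17.3 CPM in wild type. Most of this was Foxj1 (15.1 CPM in mutants, 13.1 CPM in wild type), which was not called. Aqp1 was called higher (56 counts in mutants, 19 in wild type) and Clic6 lower (3 in mutants, 43 in wild type). Untested were Lmx1a (31 counts in mutants, 11 in wild type), Ttr (5 in mutants, 6 in wild type), Msx1 (8 in mutants, 2 in wild type) and Kcne2 (8 in mutants, 15 in wild type). The 6 oligodendrocyte lineage markers summed to 150 to 169 CPM in mutants and 95.7 to 136.0 CPM in wild type, with 2 called higher. The diencephalic and hypothalamic markers were 7.05-fold higher in sum in mutants, where Otp alone made up 446 of a mean of 546 CPM. Of 6 tested, 5 were called higher. Nkx2-1 was not called and varied widely between libraries (70.7 ± 32.2 CPM in mutants, 75.1 ± 38.1 CPM in wild type, SD, n = 3 each). It made up most of the wild type mean sum of 77.4 CPM. The part of oligodendrocyte lineage, diencephalic or hypothalamic cells in the Lef1, Tcf7l2 and Wnt7b values was not tested.

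A list of 67 further pathway genes in the table was examined, of which 64 were tested, and 14 rose and 6 fell. This was 31.2% called, against 24.0% of all tested genes, with a median log2 fold change of -0.03. Wls, which carries lipid-modified Wnts to the cell surface for secretion, was at 1.01, 0.857 and 0.883 FPKM in mutant libraries, against 3.33, 3.24 and 3.11 FPKM in wild type libraries. It was 3.57-fold lower with no overlap (log2 -1.84 ± 0.079 SE, adjusted p = 6.64e-06). Porcn, the enzyme that adds the lipid, was at 8.25 FPKM in mutants and 8.71 FPKM in wild type (adjusted p = 0.417). Among other secreted antagonists and modulators 3 of 7 rose and 1 fell, including Apcdd1, an inhibitor at the membrane (17.5 FPKM in mutants, 10.8 FPKM in wild type, log2 0.67, adjusted p = 2.33e-04), and Draxin (31.1 FPKM in mutants, 23.5 FPKM in wild type, log2 0.38, adjusted p = 0.00403).

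Of 20 cytoplasmic components 3 rose and 1 fell, a share near the 24.0% of all tested genes. Btrc, a subunit of the ligase that marks beta-catenin for degradation, rose (20.1 FPKM in mutants, 12.8 FPKM in wild type, log2 0.63, adjusted p = 6.26e-05), as did Gsk3b, the kinase of the destruction complex (52.0 FPKM in mutants, 39.9 FPKM in wild type, log2 0.36, adjusted p = 0.00261). Apc (13.2 FPKM in mutants, 13.9 FPKM in wild type, adjusted p = 0.149) and Axin1 (12.1 FPKM in mutants, 12.05 FPKM in wild type, adjusted p = 0.930) were not called. Of the Dishevelled genes, Dvl3 rose (21.8 FPKM in mutants, 16.9 FPKM in wild type, adjusted p = 0.0116), whereas Dvl1 (11.9 FPKM in both groups, adjusted p = 0.808) and Dvl2 (8.70 FPKM in mutants, 8.05 FPKM in wild type, adjusted p = 0.348) were not called.

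Of 12 nuclear cofactors 2 rose and 1 fell, or 25% called, a share near the 24.0% of all tested genes. Tle1, a corepressor that binds TCF/LEF factors, was at 13.0 FPKM in mutants and 7.15 FPKM in wild type (log2 0.84, adjusted p = 2.45e-05). Of 10 planar cell polarity genes 3 rose and 1 fell, or 40% called, among them Vangl2 (25.03 FPKM in mutants, 20.5 FPKM in wild type, log2 0.26, adjusted p = 0.00404), Celsr1 (8.48 FPKM in mutants, 6.26 FPKM in wild type, log2 0.41, adjusted p = 0.00505) and the lower Daam1 (27.4 FPKM in mutants, 35.5 FPKM in wild type, log2 -0.40, adjusted p = 9.95e-04). Of 5 tested genes in the list of receptor turnover and cofactors 2 rose, Tspan12 and Reck, or 40% called. Of 7 further target genes, 28.6% were called, against 24.0% of all tested genes: 1 rose, Fgf9, and 1 fell, Myc (1.07 FPKM in mutants, 2.21 FPKM in wild type, log2 -1.07, adjusted p = 5.94e-04). Tspan12, Reck and Fgf9 are named after their values were seen. Tspan12 lost its call in 4 of 10 alternatives (without mutant library 1 or 3 or wild type library 2 or 3, adjusted p 0.0117 to 0.0956 over the 10). Reck lost it in 5 (the replicate block, or without mutant library 2 or 3 or wild type library 1 or 2, adjusted p 0.0244 to 0.0885), and Fgf9 in 4 (the replicate block, or without mutant library 1 or 2 or wild type library 2, adjusted p 0.0101 to 0.0595).

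**Figure D4:**
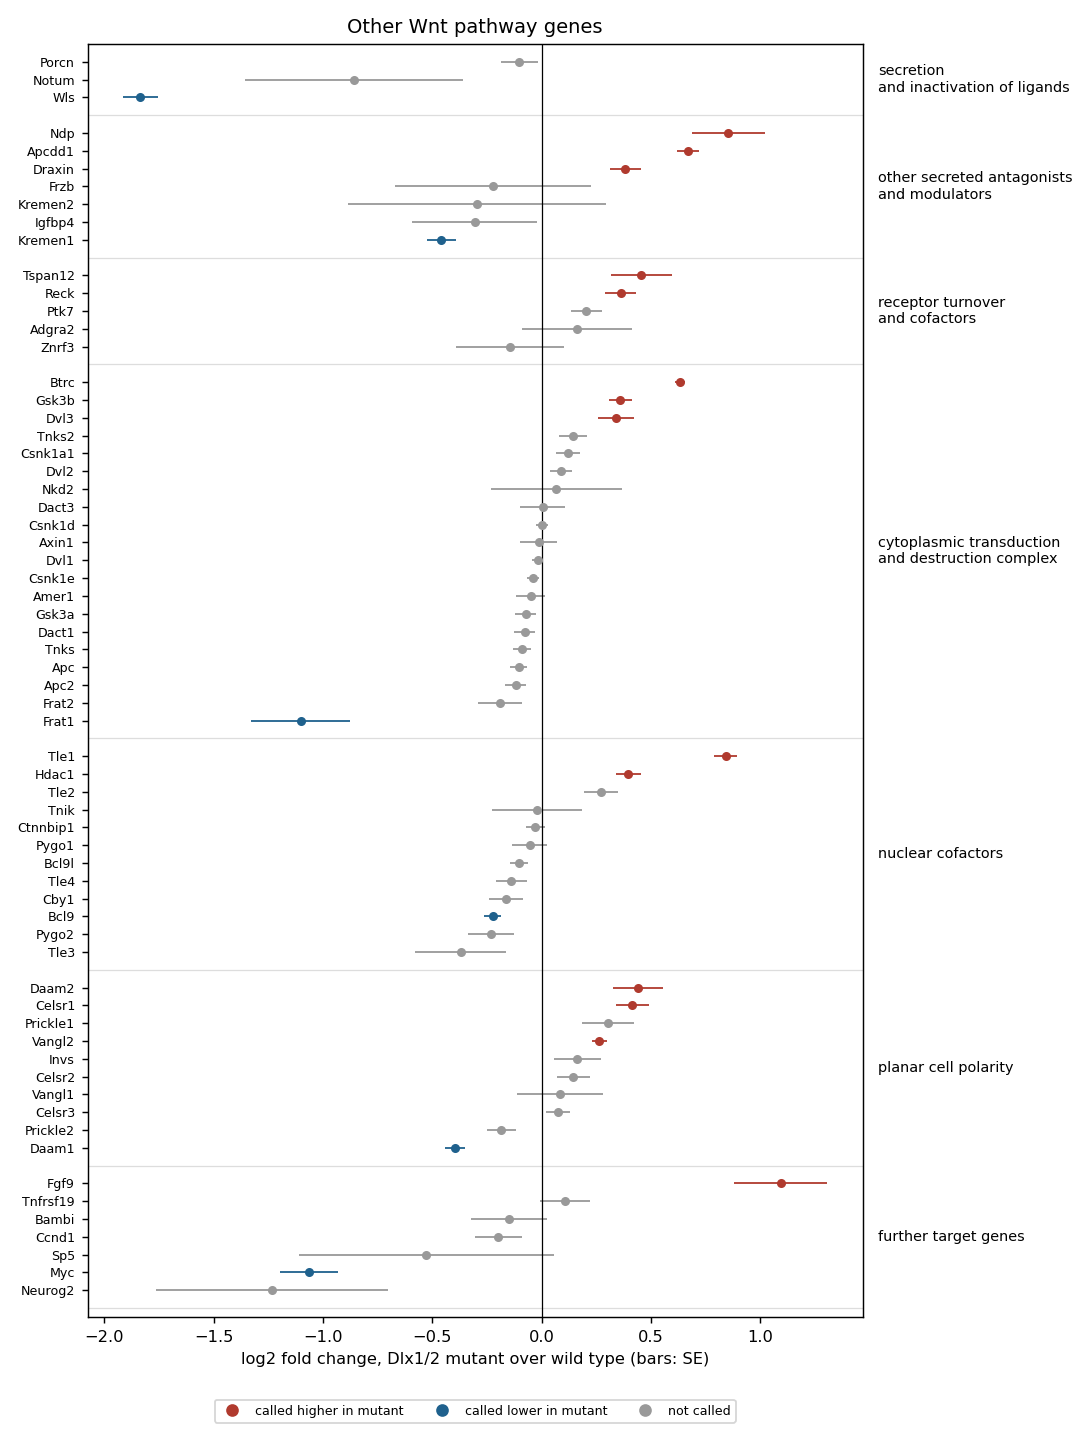
Log2 fold change (mutant over wild type) on the horizontal axis for the 64 tested genes of the wider Wnt pathway, grouped by role, with bars for the SE (n = 3 each); red points were called higher in mutants, blue points called lower and grey points not called. Wls is the lowest called point at -1.84, and most cytoplasmic components are grey and near 0.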

How the data were processed

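Counts and FPKM per gene for 6 libraries are whole-number read counts and length-scaled values as the authors deposited them, per the file headers, beside a p-value per gene whose test is not named. Tools in the submitters' processing notes are edgeR, StringTie 1.3.0 and HISAT2 2.0.4, with mm10 and GRCm38.p4 as builds. Not given in the sources used here are the counter, the annotation release and the strand setting. FPKM equalled count per library total up to 1 factor per gene (within 0.0001) for all 11418 genes that exceeded 50 counts throughout. That factor implied a length within 1.5-fold of the GENCODE M21 exon length in 24 of 37 tested Wnt genes. Among the other 13 are Wnt5a, Wnt5b, Ror2, Fzd3, Fzd8, Ryk, Ctnnb1, Axin2 and Tcf7l2, so their levels beside other genes are less certain, while comparisons between groups are unaffected.

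Genes were kept with edgeR 4.0.16 filterByExpr by group in R 4.3.3 (minimum 10 counts at the median library size), which left 15326, scaled by TMM and compared by the two-sided quasi-likelihood F test with Benjamini-Hochberg adjustment over all tested genes. Each SE was taken from log2 CPM per library, 0.5 being added to each count. CPM is scaled to the total of tested genes after TMM, and intervals and floors cover counting error only. The procedure was tested on simulated data. Depth per library was 10711630 to 16588359 counts. No replicate pair agreed within sampling noise (chi-square per degree of freedom 7.60 to 15.3). The labels give no batch, but the library names differ in form between mutants and wild type. A batch that coincided with genotype could not be told apart from it. Alternatives were RLE scaling, no filter, DESeq2 1.42.0, the replicate number as a block and leaving out each library. The members and gene lists were chosen with earlier results of these data known. All members could be named, those described in full being the called ones and the uncalled ones with the highest FPKM in their role; of the wider list, the 10 called genes with the smallest adjusted p and 8 genes set by name. Of the 20 called members, all 20 had a p below 0.05 in the authors' deposited table, as did Fzd7 and Wnt5b among the 17 not called.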

Additional observations from a re-analysis of the deposited data

How the results depend on the processing

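Over 10 alternatives, 17 of the 20 called Wnt genes kept their call and none changed direction; the exceptions were Nkd1, Tcf7l1 and Fzd10. The number of Wnt genes called ran from 11 to 14 higher and was 6 lower in each, and that of the wider pathway list from 11 to 15 higher and 6 to 8 lower. Over all tested genes the calls were 1708 higher and 1959 lower with RLE scaling, 1603 and 1903 without a filter, 1578 and 1825 with DESeq2, and 1199 to 1595 higher and 1417 to 1942 lower when 1 library was left out. The replicate numbers do not pair the libraries (correlations of same-numbered deviations -0.176, 0.0426 and -0.168). With the replicate block there were 1223 genes higher and 1458 lower, and 12 Wnt genes higher and 6 lower.

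Among the genes named, directions turned only in those that were not called, and the cause was not tested. With the replicate block Wnt2b had a log2 change of -0.0014. Leaving out each library in turn, the log2 change ran from -0.2766 to 0.1427 for Ctnnb1, -0.1943 to 0.1113 for Fzd6, -0.0073 to 0.2707 for Fzd4, -0.0184 to 0.3859 for Sfrp4, -0.1704 to 0.1620 for Wnt2b, -0.0614 to 0.0326 for Lrp6, -0.0509 to 0.0294 for Dkk3, -0.0809 to 0.0904 for Lgr4, -0.0373 to 0.0792 for Fzd2 and -0.0812 to 0.0430 for Axin1. Depth limits the 14 untested genes, none with over 16 counts in a library.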

Other observations

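Ctnnb1 in mutant library 2 was 0.557 times the lower of the other mutant libraries in CPM. Among 2415 genes with at least 100 CPM in both groups, 4 were as low in that library (Ctnnb1, Dynll2, Xist and Zfp422), against 5 genes in mutant library 1 and 4 in mutant library 3 by the same measure. These genes were singled out after their values were seen.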
